A study of Mus musculus with 9 samples.

Results

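A set of 53 genes for lysosomal enzymes, lysosomal membrane proteins and their regulators was followed across unexposed, AgNP-exposed and Ag+-exposed embryoid bodies (EBs). The genes were listed by symbol, and each was read from 1 probe set, the one with the highest mean over the 9 arrays among those naming a single gene. Of the 53 genes, 52 were measured in this way, out of 22180 gene symbols on the array, and Glb1 (beta-galactosidase) lay only in a probe set naming several genes and was not analysed here. EBs are aggregates of mouse embryonic stem cells (mESCs) in which the cells begin to differentiate, and here they were made from C57BL/6 cells of a single mESC line. Control EBs received no silver, AgNP EBs received citrate-coated particles of 20 nm at 5 µg/ml, and Ag+ EBs received silver acetate at 5 µg/ml of silver ion. All EBs were of day 3 when the exposure began and were collected 24 h later. Each group held 3 biological replicates on 1 Affymetrix Mouse Gene 2.0 ST array each, and every level below is a log2 signal. Levels of different genes are not compared, since each probe set has its own response.

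The lysosome is an acidic compartment in which proteins, sugars, lipids and nucleic acids are broken down by hydrolases. A proton pump in its membrane keeps it acidic, most soluble enzymes reach it through a mannose 6-phosphate tag and the receptors of that tag, and transporters export the products. The transcription factor TFEB is known to switch on many lysosomal genes together. In the early mouse embryo, lysosomes are prominent in the visceral endoderm, an outer epithelium that takes up and digests material for the embryo.

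The 9 arrays were close to each other over the 25341 named probe sets, with array medians of 5.03 to 5.08, and they correlated at 0.994 to 0.996 inside groups and 0.991 to 0.996 across them. No batch is stated in the labels used here. The median named probe set had a mean signal of 5.06 and the 25th percentile was 3.72, and 3 of the 52 genes (Acp5, Mfsd8 and Tfeb) had a mean under 5. The labels name the cells as mESCs. The 10 markers of pluripotent cells and epiblast had a mean level of 7.12 to 8.03 over the 9 arrays. Of these, Pou5f1, which maintains pluripotency, lay between 5.75 and 6.37, and Dnmt3b, a DNA methyltransferase of the epiblast, between 9.63 and 10.50. The 9 macrophage markers, genes of a cell type rich in lysosomes, had a mean level of 3.65 to 3.82 on every array, with Ptprc, the common leukocyte antigen, between 2.68 and 2.85, and 0 of 9 passed the threshold in any comparison.

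With Ag+, 5 of the 7 genes of lysosomal cysteine proteases fell, and of these Ctsh, Ctsc and Lgmn fell by more than 2-fold. Of the 52 genes, 8 were lower and 0 were higher in Ag+ EBs than in control EBs at a Benjamini-Hochberg adjusted p under 0.05 in limma, where 1.47% of the 25341 named probe sets were lower and 0.813% were higher. The 8 genes were Ctsh, Ctsc, Lgmn, Ctsl, Ctsz, Gaa, Neu1 and Arsa. With these, 26 of the 52 had an unadjusted p under 0.05, against 3154 of all 22180 genes. The Ag+ arrays lay wholly below the control arrays for 27 of the 52 genes, against 9.51% of all named probe sets, and wholly above them for 2 (Ids and Arsb), against 6.99%. The median difference over the 52 genes was −0.14 on the log2 scale and 44 of 52 differences were below 0. Over all genes the median was −0.01 and 51.7% were below 0. The values over all genes and probe sets were not matched to the signal of the 52 genes. Of the 52, 3 had a mean signal under 5, where the median named probe set had 5.06. A one-way ANOVA of the 2 groups compared called 4 of the 52 genes (Ctsc, Ctsh, Ctsl and Lgmn) at a fold change of 1.5 and an unadjusted p under 0.05, the thresholds of the methods, and 0 after the same adjustment as in limma, both with pooled and with unequal variances. The share of all named probe sets called by this ANOVA was not counted. In RNA of whole EBs, fewer cells of a type and less RNA per cell cannot be told apart.

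With AgNPs at the same mass of silver, 0 of the 52 genes passed the threshold in limma against controls. Of named probe sets, 0.0355% were higher and 0.0513% were lower. Of the 52, 1 (Arsa) had an unadjusted p under 0.05, against 1898 of all 22180 genes. The differences ran from −0.19 to 0.16, with 23 above and 29 below 0 and a median of −0.01. That median changed sign (0.02) when each array was centred on the median of its brighter probe sets. Here brighter means a signal averaging 5 or more over the 9 arrays. The AgNP arrays lay wholly above the control arrays for 2 genes (Gla and Cd68), against 4.84% of named probe sets, and wholly below them for 4 (Arsa, Sgsh, Galns and Cln3), against 6.09%. Compared directly, 6 genes were higher in AgNP EBs than in Ag+ EBs (Ctsh, Lgmn, Ctsc, Ctsl, Ctsz and Neu1) and 0 were lower, where 0.363% of named probe sets were higher and 0.146% were lower. The AgNP arrays lay wholly above the Ag+ arrays for 24 of the 52 genes, against 6.72% of named probe sets, and wholly below them for 3 (Galc, Ids and Galns), against 5.61%. The comparisons of AgNP and Ag+ with controls share the 3 control arrays, and the direct comparison shares the Ag+ arrays with one and the AgNP arrays with the other.

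**Figure D1:**
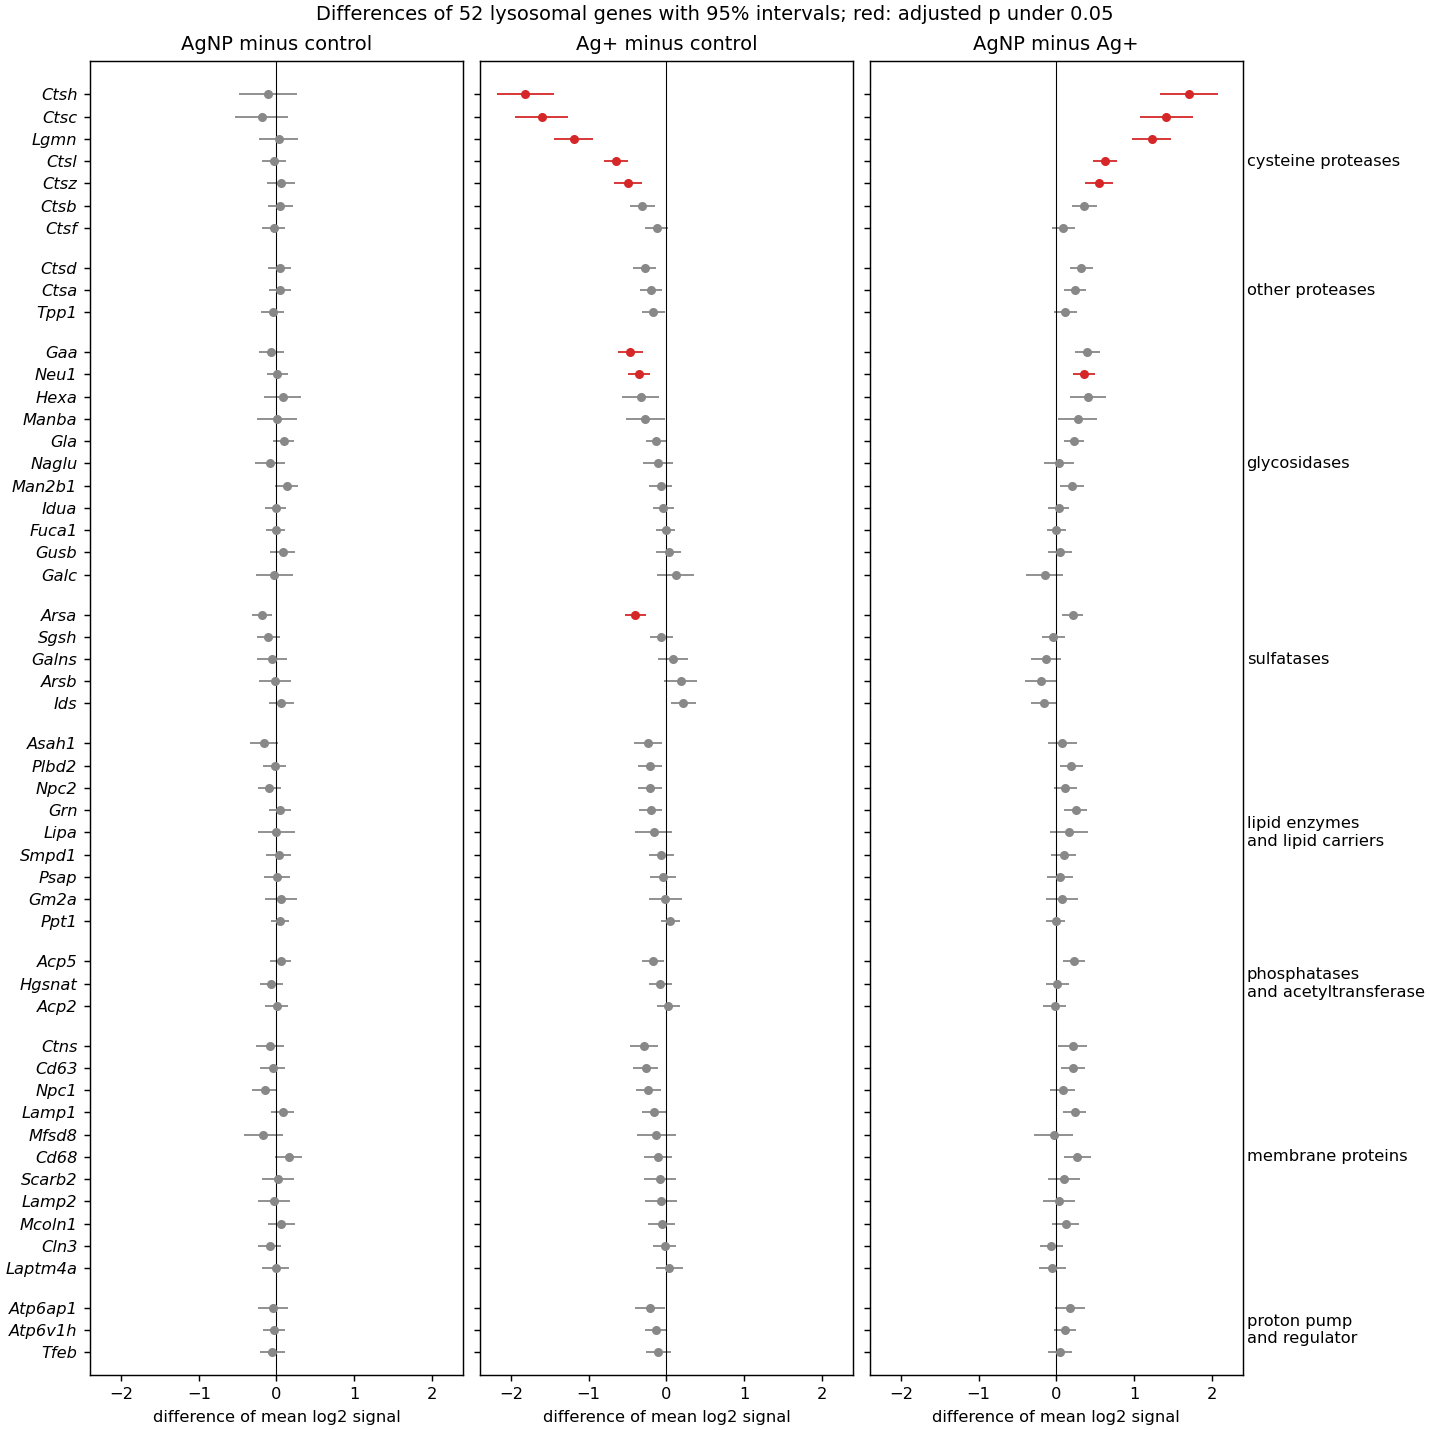
Difference of the mean log2 signal (horizontal axis) for each of the 52 genes, in rows by class, in the 3 comparisons, with bars for the 95% interval and red for an adjusted p under 0.05. The 8 red points of the Ag+ comparison all lie below 0 and 5 of them are cysteine proteases, while no point of the AgNP comparison is red.

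The cysteine proteases carried the large differences. Lysosomal cysteine cathepsins and legumain share a cysteine in the active site, and they differ in where they cut. Ctsh, an aminopeptidase, had a level of 7.89, 7.49 and 7.35 on the control arrays, 7.67, 7.43 and 7.30 on the AgNP arrays, and 5.96, 5.83 and 5.49 on the Ag+ arrays. The Ag+ arrays thus lay more than 1 log2 unit under every other array, and the control and AgNP arrays overlapped. The difference of Ag+ from control was −1.82 ± 0.16 (SE, adjusted p = 0.00063), a 3.52-fold lower level, and AgNP EBs were 1.71 ± 0.16 above Ag+ EBs (adjusted p = 0.0030). The difference of AgNP from control was −0.11, with a 95% interval of −0.48 to 0.26.

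Ctsc, the dipeptidyl peptidase that activates serine proteases of immune granules, read 8.15, 7.87 and 7.58 in control EBs, 7.88, 7.52 and 7.63 in AgNP EBs, and 6.45, 6.12 and 6.21 in Ag+ EBs. It fell by 1.61 ± 0.15 on the log2 scale with Ag+ (adjusted p = 0.0008), and was 1.42 ± 0.15 higher with AgNPs than with Ag+ (adjusted p = 0.0054). Lgmn, the asparaginyl endopeptidase legumain, which also processes cathepsins, read 9.23, 9.11 and 8.99 in controls, 9.33, 9.08 and 9.01 with AgNPs, and 8.06, 7.74 and 7.95 with Ag+. In both genes the control and AgNP arrays overlapped and the Ag+ arrays stood apart below them. Lgmn fell by 1.19 ± 0.11 with Ag+ (adjusted p = 0.00072) and was 1.23 ± 0.11 higher with AgNPs than with Ag+ (adjusted p = 0.0024). Against controls, the AgNP difference was −0.19 (95% interval −0.53 to 0.15) for Ctsc and 0.03 (−0.22 to 0.28) for Lgmn.

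Ctsl, an endopeptidase of broad use in protein breakdown, read 9.32, 9.13 and 9.15 in control EBs, 9.24, 9.10 and 9.17 in AgNP EBs, and 8.55, 8.52 and 8.57 in Ag+ EBs. The 3 Ag+ arrays were close together and lay below all 6 others. Ctsl fell by 0.65 ± 0.07 with Ag+ (adjusted p = 0.0016) and was 0.62 ± 0.07 higher with AgNPs than with Ag+ (adjusted p = 0.0061). Ctsz, a carboxypeptidase, read 8.79, 8.93 and 8.80 in controls, 9.07, 8.81 and 8.82 with AgNPs, and 8.35, 8.39 and 8.32 with Ag+. It fell by 0.49 ± 0.08 with Ag+ (adjusted p = 0.014), and was 0.55 ± 0.08 higher with AgNPs than with Ag+ (adjusted p = 0.028). Ctsz rested on the full set of arrays: without control replicate 2 or Ag+ replicate 1, 2 or 3 its adjusted p against controls was 0.051 to 0.069, and without control replicate 2 or any AgNP or Ag+ array its adjusted p between the treatments was 0.05 to 0.13 and it was not called.

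The other 2 cysteine proteases did not pass. Ctsb, which cuts both within proteins and from their carboxyl end, differed by −0.31 ± 0.07 between Ag+ and control EBs (adjusted p = 0.066), and its Ag+ arrays lay below all others. Ctsf, a further endopeptidase, differed by −0.12 between Ag+ and control EBs and its groups overlapped. As a class, 5 of 7 cysteine proteases were lower with Ag+ than in controls and the same 5 were higher with AgNPs than with Ag+, with medians of −0.65 and 0.62. The mean of the 7 genes, taken on each array relative to the control mean, was −0.10 to 0.13 in control EBs, −0.10 to 0.11 in AgNP EBs, and −0.94 to −0.81 in Ag+ EBs.

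**Figure D2:**
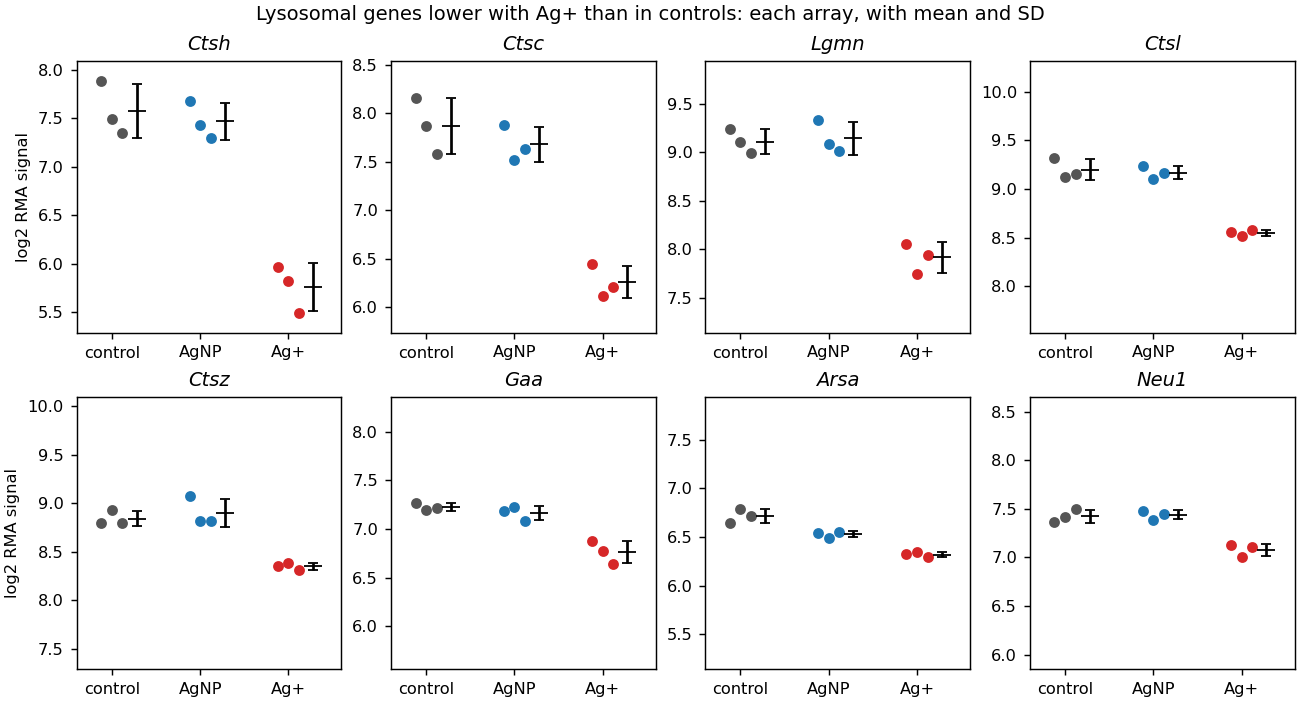
Log2 signal (vertical axis) of the 8 genes lower with Ag+ than in controls, with a point per array in each group and the mean and SD of the 3 arrays beside the points. In all 8 panels the Ag+ points lie below the control points, and for Arsa the AgNP points lie between the other groups.

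TFEB binds an 8-base palindrome, TCACGTGA, or its 6-base core, CACGTG, in promoters of lysosomal genes. Each motif reads the same on both strands, and the shorter lies within the longer. In RefSeq promoter windows of GRCm38.p6, which run from 250 bases before an annotated start to 50 after it, 45 of the 53 genes had an entry, and CACGTG was found for 14 of them (31.1%), against 8.09% of 27025 genes. TCACGTGA was found for 5 of the 45 (Cln3, Ctsa, Ctsd, Gla and Mcoln1, 11.1%), against 1.12% of all genes. Of the 7 genes lower with Ag+ that had a window, 4 held CACGTG (Arsa, Ctsl, Gaa and Lgmn) and 0 held TCACGTGA. Ctsh, the gene with the largest fall, had no window and was not read. Of the other 38 genes, 10 held the shorter and 5 the longer motif. These 38 include Glb1, which held CACGTG but was not measured on the arrays. Lgmn held CACGTG at the downstream of its 2 annotated starts and not at the other. The Ctsl window may not lie at the main start of the gene, since its last bases before the start read like the end of an intron. Without Ctsl 3 of 6 held CACGTG. A match of letters is a description and not a binding site. The 250 bases before the start are printed below for Ctsc and for both annotated starts of Lgmn, which fell, and for Ctsd and Mcoln1, which did not pass and hold both motifs, each 5′ to 3′ on the gene's strand with the motifs in capitals; these genes were chosen after their values were seen.
Ctsc, chr7:88277835-88278084, plus strand: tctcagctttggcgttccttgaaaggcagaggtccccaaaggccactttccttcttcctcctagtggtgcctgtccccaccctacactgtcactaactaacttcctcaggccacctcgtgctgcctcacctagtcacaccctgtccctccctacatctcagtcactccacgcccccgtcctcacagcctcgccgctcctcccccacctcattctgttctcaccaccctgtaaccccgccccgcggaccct
Lgmn, chr12:102439093-102439342, minus strand: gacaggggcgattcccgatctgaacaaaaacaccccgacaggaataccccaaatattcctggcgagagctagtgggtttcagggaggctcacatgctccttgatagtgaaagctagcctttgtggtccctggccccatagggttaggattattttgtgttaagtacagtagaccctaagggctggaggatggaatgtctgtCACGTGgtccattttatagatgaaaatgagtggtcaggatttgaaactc
Lgmn, chr12:102439729-102439978, minus strand: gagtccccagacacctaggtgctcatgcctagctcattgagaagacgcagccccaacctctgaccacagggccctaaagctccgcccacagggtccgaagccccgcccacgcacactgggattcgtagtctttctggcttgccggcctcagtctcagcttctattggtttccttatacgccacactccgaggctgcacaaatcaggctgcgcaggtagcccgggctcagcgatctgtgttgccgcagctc
Ctsd, chr7:142387828-142388077, minus strand: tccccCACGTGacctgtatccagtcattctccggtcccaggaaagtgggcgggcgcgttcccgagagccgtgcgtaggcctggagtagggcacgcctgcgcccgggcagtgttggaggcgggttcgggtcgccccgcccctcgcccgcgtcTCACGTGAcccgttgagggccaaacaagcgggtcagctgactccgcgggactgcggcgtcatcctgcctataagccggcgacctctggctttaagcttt
Mcoln1, chr8:3500269-3500518, plus strand: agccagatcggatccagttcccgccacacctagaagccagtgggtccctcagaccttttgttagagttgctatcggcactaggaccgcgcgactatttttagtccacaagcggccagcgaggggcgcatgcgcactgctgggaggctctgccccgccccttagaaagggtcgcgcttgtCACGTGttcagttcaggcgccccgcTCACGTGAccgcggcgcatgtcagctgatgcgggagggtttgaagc

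Among the proteases of other types, 0 of 3 passed in any comparison, with 2 or 3 of 3 at an unadjusted p under 0.05 in the comparisons with Ag+ EBs. Ctsd, the main aspartic protease of the lysosome, read 10.03, 10.08 and 10.18 in controls, 10.08, 10.17 and 10.16 with AgNPs, and 9.81, 9.88 and 9.75 with Ag+. Its Ag+ arrays lay below the other 6, at a difference of −0.28 ± 0.07 from controls (adjusted p = 0.066). Ctsa, the serine carboxypeptidase that also protects Neu1 and Glb1 in a complex, read 8.99, 8.99 and 9.12 in controls, 9.04, 9.05 and 9.17 with AgNPs, and 8.83, 8.81 and 8.88 with Ag+ (difference from controls −0.20 ± 0.06, adjusted p = 0.21). Tpp1, a tripeptidyl peptidase, differed by −0.17 between Ag+ and controls (adjusted p = 0.30). In each of these 3 genes, too, no Ag+ array reached the lowest control array.

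The glycosidases remove sugars from glycogen, glycoproteins, glycolipids and glycosaminoglycans, and of the 11 measured, 2 were lower with Ag+ than in controls and 0 were higher. Gaa, the acid alpha-glucosidase that breaks down glycogen, read 7.27, 7.19 and 7.22 in controls, 7.18, 7.22 and 7.08 with AgNPs, and 6.88, 6.77 and 6.64 with Ag+. Its Ag+ arrays lay below all others, and it fell by 0.46 ± 0.07 against controls (adjusted p = 0.011), while the difference of AgNP from Ag+ EBs, 0.40 ± 0.07, did not pass (adjusted p = 0.063). Neu1, the sialidase that takes sialic acid from glycoproteins, read 7.36, 7.42 and 7.50 in controls, 7.48, 7.39 and 7.45 with AgNPs, and 7.13, 7.01 and 7.11 with Ag+. It fell by 0.35 ± 0.06 with Ag+ (adjusted p = 0.023) and was 0.36 ± 0.06 higher with AgNPs than with Ag+ (adjusted p = 0.0499). Neu1 was close to the threshold: its adjusted p against controls was 0.051 to 0.092 without control replicate 2 or 3 or any Ag+ array, and 0.059 to 0.21 against AgNP EBs without any single array of the 9. The remaining 9 differed from controls by −0.33 (Hexa, the alpha subunit of beta-hexosaminidase, adjusted p = 0.19) to 0.12 (Galc, galactosylceramidase, adjusted p = 0.65). Of them, Hexa, Manba (beta-mannosidase) and Gla (alpha-galactosidase A) had Ag+ arrays wholly below the control arrays, and Fuca1, Idua, Gusb, Naglu, Man2b1 and Galc overlapped.

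The sulfatases moved in no common direction. Arsa, arylsulfatase A, which acts on sulfatide, read 6.65, 6.79 and 6.71 in controls, 6.54, 6.49 and 6.55 with AgNPs, and 6.33, 6.34 and 6.29 with Ag+. The 3 groups did not overlap, with the AgNP arrays in the middle. It fell by 0.40 ± 0.06 with Ag+ (adjusted p = 0.0075), and differed from controls by −0.19 ± 0.06 with AgNPs (adjusted p = 0.415 and unadjusted p = 0.0096). Ids, which removes sulfate from heparan and dermatan sulfate, read 6.86, 6.99 and 6.90 in controls, 6.90, 7.04 and 6.99 with AgNPs, and 7.06, 7.12 and 7.24 with Ag+. Its Ag+ arrays lay above the others at 0.22 ± 0.07 over controls, which did not pass (adjusted p = 0.20). Arsb lay 0.18 above and Galns 0.08 above controls with Ag+, and Sgsh 0.07 below. Over the 5 sulfatases the median difference of Ag+ from controls was 0.08, and on no array of any group did their mean depart from the control mean by more than 0.11.

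The 9 lipid enzymes and lipid carriers had 0 calls in any comparison, at differences of −0.24 to 0.05 between Ag+ and controls and −0.16 to 0.06 between AgNP and controls. Grn, progranulin, a precursor cleaved in the lysosome, read 9.53, 9.70 and 9.71 in controls, 9.64, 9.71 and 9.73 with AgNPs, and 9.45, 9.44 and 9.44 with Ag+. The Ag+ arrays lay below the rest, at −0.20 ± 0.06 from controls and 0.25 ± 0.06 under AgNP EBs (adjusted p = 0.19 and 0.21). Plbd2, a phospholipase B-like protein, read 6.73, 6.66 and 6.74 in controls, 6.73, 6.69 and 6.65 with AgNPs, and 6.53, 6.59 and 6.39 with Ag+ (difference from controls −0.21, adjusted p = 0.19). Npc2, the soluble carrier that hands cholesterol to Npc1, and Asah1, acid ceramidase, also had Ag+ arrays wholly below the control arrays, at differences of −0.21 and −0.24. Lipa, Smpd1, Psap, Gm2a and Ppt1, which act on sterol esters, sphingomyelin, sphingolipids and palmitoylated proteins or help such enzymes, overlapped between Ag+ and controls.

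Of the 2 acid phosphatases and the acetyltransferase, 0 of 3 passed in any comparison. Acp5, the tartrate-resistant phosphatase, read 4.88, 4.80 and 4.74 in controls, 4.90, 4.85 and 4.83 with AgNPs, and 4.57, 4.70 and 4.63 with Ag+, under the median signal of the array. Its Ag+ arrays were under all others, at a difference of −0.17 from controls (adjusted p = 0.26). Hgsnat, which acetylates heparan sulfate during its breakdown, read 8.02, 7.96 and 7.94 in controls, 7.91, 7.83 and 7.98 with AgNPs, and 7.82, 7.89 and 7.97 with Ag+. Its groups overlapped, as did those of Acp2.

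**Figure D3:**
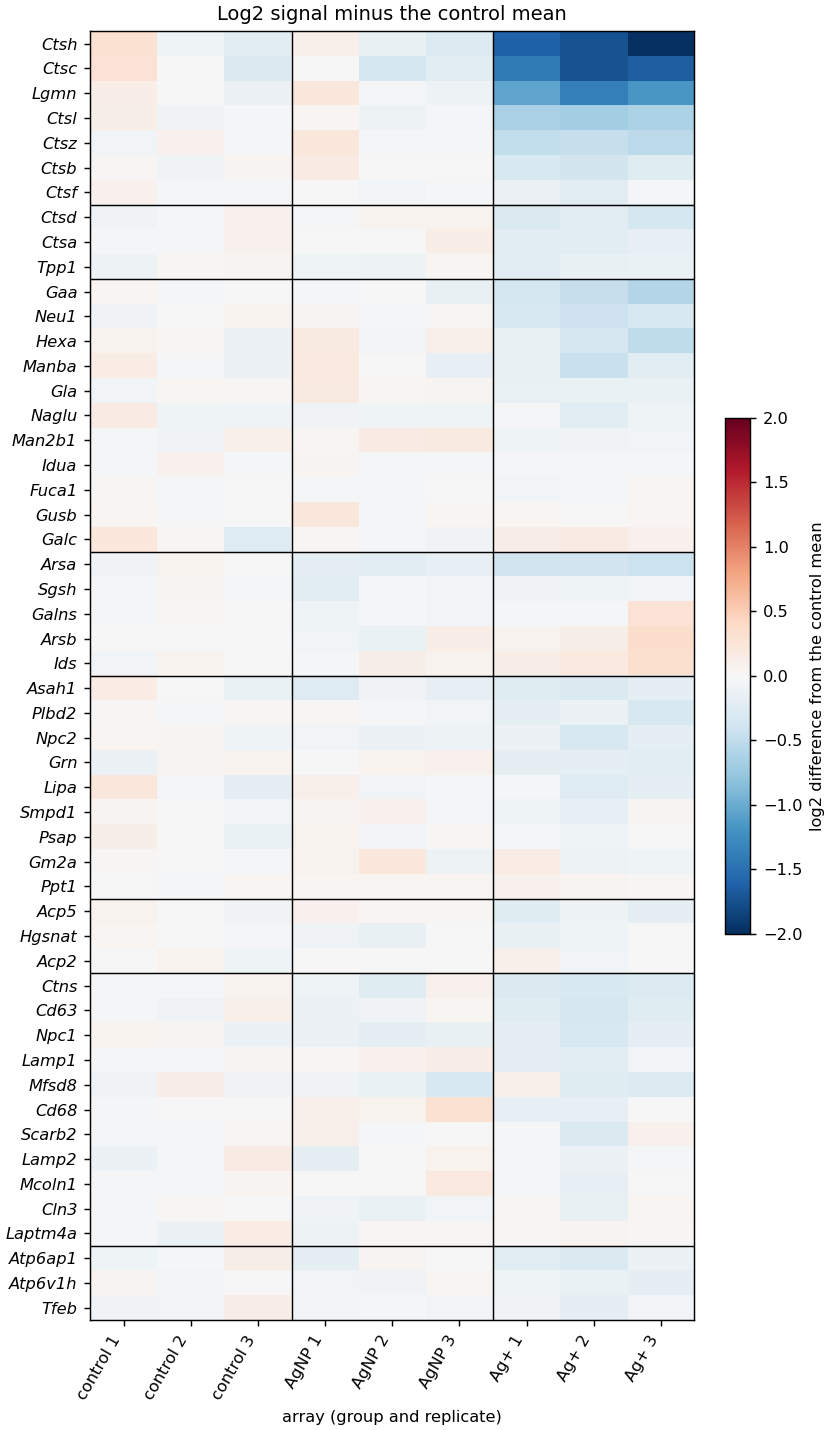
Log2 signal of the 52 genes (rows, by class) on the 9 arrays (columns) minus the gene's control mean, from −2 (blue) to 2 (red). Dark blue is limited to the Ag+ columns of the upper cysteine proteases, with Ctsh, Ctsc and Lgmn below −1 on each of the 3 Ag+ arrays. The rows of membrane proteins are pale throughout.

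Membrane proteins of the lysosome had 0 of 11 calls in each comparison. Cd63, a tetraspanin of late endosomes and lysosomes, read 8.54, 8.48 and 8.65 in controls, 8.44, 8.49 and 8.60 with AgNPs, and 8.32, 8.22 and 8.32 with Ag+. Ctns, which exports cystine, read 8.28, 8.28 and 8.38 in controls, 8.22, 8.08 and 8.40 with AgNPs, and 8.02, 8.01 and 8.03 with Ag+. In both, the Ag+ arrays lay below all others, at −0.27 ± 0.07 (adjusted p = 0.10) and −0.29 ± 0.08 (adjusted p = 0.13) from controls. Npc1, the cholesterol exporter, and Lamp1, a main glycoprotein of the lysosomal membrane, also had Ag+ arrays wholly below the control arrays, at −0.23 and −0.16. Lamp2, Scarb2, Cd68, Cln3, Mfsd8, Laptm4a and the calcium channel gene Mcoln1 overlapped between Ag+ and control EBs, at −0.13 to 0.04. Cd68, a glycoprotein abundant in macrophages, was 0.16 above controls with AgNPs (95% interval −0.02 to 0.34, adjusted p = 0.62), and its AgNP arrays did not overlap with the controls. The median over the 11 was −0.11 for Ag+ and −0.03 for AgNPs against controls.

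The proton pump and the regulator Tfeb had 0 calls of 3. Atp6ap1, an accessory subunit of the pump, read 9.06, 9.13 and 9.27 in controls, 8.98, 9.21 and 9.14 with AgNPs, and 8.92, 8.86 and 9.04 with Ag+ (difference from controls −0.21, adjusted p = 0.31). Atp6v1h, a subunit of its cytosolic part, read 7.56, 7.44 and 7.49 in controls, 7.44, 7.43 and 7.53 with AgNPs, and 7.42, 7.36 and 7.30 with Ag+ (−0.14, adjusted p = 0.37). In both genes the Ag+ arrays lay just below the control arrays. Tfeb itself read 4.18, 4.19 and 4.39 in controls, 4.19, 4.22 and 4.19 with AgNPs, and 4.18, 4.07 and 4.20 with Ag+. Its groups overlapped, at differences of −0.10 (95% interval −0.26 to 0.06) in Ag+ EBs and −0.05 (−0.21 to 0.11) in AgNP EBs. This signal was below the array median, and the activity of the TFEB protein was not measured.

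Without the 7 cysteine proteases, 3 of the remaining 45 genes were lower with Ag+ than in controls, against 1.47% of named probe sets. Of the 45 differences, 37 were below 0, with a median of −0.11. The mean over all 52 genes, relative to the control mean, was −0.018 to 0.0235 on the control arrays, −0.0345 to 0.00275 on the AgNP arrays and −0.268 to −0.194 on the Ag+ arrays. When each array was centred on the median of its brighter probe sets (averaging 5 or more), 39 of the 52 differences were below 0. Their median was −0.09 and 7 of the 8 calls were kept, without Neu1 (adjusted p = 0.065). This centring moved the median of all named probe sets by 0.05 in this comparison.

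Further lists held other genes of the same compartment. Of 13 further hydrolases measured, 3 were lower with Ag+ than in controls and 0 were higher, with a median of −0.06. Of all named probe sets, 1.47% were lower and 0.813% were higher. Between the treatments, 0.363% were higher and 0.146% were lower with AgNPs than with Ag+. Man2b2, an alpha-mannosidase, fell by 0.66 ± 0.09 (adjusted p = 0.0063), Scpep1, a serine carboxypeptidase, fell by 0.39 ± 0.06 (adjusted p = 0.014), and Ctsk, a collagen-degrading cysteine cathepsin known from osteoclasts, fell by 0.47 ± 0.09 (adjusted p = 0.039). The other cysteine cathepsins of this list did not pass: Ctso differed from controls by −0.06 (adjusted p = 0.80) and Ctss by 0.19 (adjusted p = 0.37) with Ag+, and the arrays overlapped in both. Ctsk, Ctso and Ctss had mean signals of 3.97, 4.40 and 2.92, under the median of named probe sets (5.06). The AgNP arrays of Ctsk also lay wholly below the controls, at −0.28, which did not pass in limma (adjusted p = 0.47). These cathepsins are not in the count of 7 above. Man2b2 and Scpep1 were also higher with AgNPs than with Ag+, by 0.60 and 0.46. Of 13 genes for tagging and sorting of enzymes, 2 were lower with Ag+: Gnptab, whose enzyme makes the mannose 6-phosphate tag, fell by 0.58 ± 0.12 (adjusted p = 0.043), and Igf2r, a receptor of that tag, fell by 0.26 ± 0.05 (adjusted p = 0.039). Further membrane proteins had 0 of 15 calls in each comparison. Of 14 further pump subunits, 0 passed against controls, 13 lay below 0 with Ag+ (median −0.17), and Atp6v0b, of the membrane part of the pump, was 0.36 ± 0.06 higher with AgNPs than with Ag+ (adjusted p = 0.049).

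**Figure D4:**
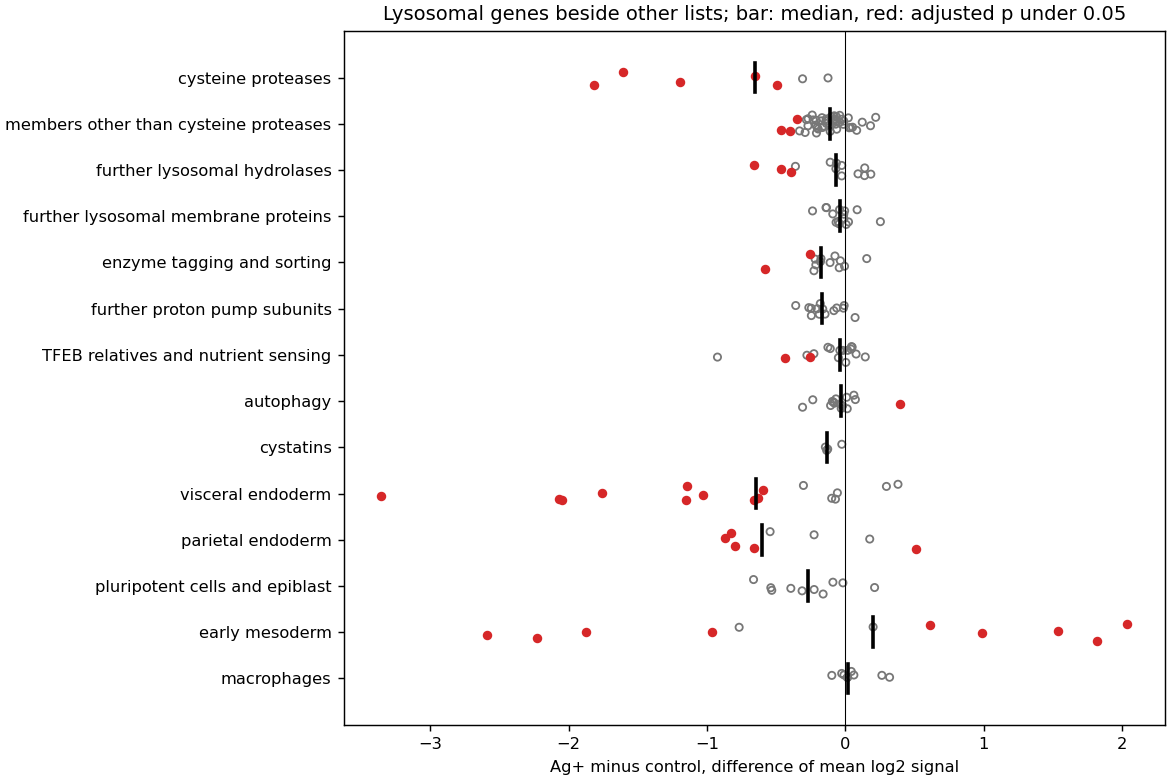
Difference of the mean log2 signal of Ag+ from control EBs (horizontal axis) for the genes of each list (rows), with a point per gene, red for an adjusted p under 0.05 and a bar at the list's median. The cysteine proteases (median −0.65), the visceral endoderm markers (median −0.65) and the parietal endoderm markers (median −0.60) lie to the left. The pluripotent and epiblast markers centre on −0.27, the other 45 lysosomal genes on −0.11 and the macrophage markers on 0.02.

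Markers of the visceral endoderm were measured beside the lysosomal genes. Of 16 measured markers, 10 were called lower with Ag+ than in controls and 0 higher, with a median of −0.65. Of all named probe sets, 1.47% were lower and 0.813% were higher. The differences were below 0 for 14 markers and above 0 for 2, up to 0.38. The Ag+ arrays lay wholly above the controls for these 2 and wholly below for 10, against 6.99% and 9.51% of named probe sets. Between the treatments, 9 were higher with AgNPs than with Ag+, against 0.363% of named probe sets. With AgNPs against controls, 0 of the 16 passed, 5 had an unadjusted p under 0.05 and the median was −0.10, where that of the 52 lysosomal genes was −0.01. The mean level of the 16 markers was 6.91 to 7.06 on the control arrays, 6.81 to 6.97 on the AgNP arrays, of which AgNP replicates 2 and 3 lay below every control array, and 6.02 to 6.16 on the Ag+ arrays. Cubn, the endocytic receptor cubilin, fell by 3.35 ± 0.23 with Ag+ (adjusted p = 0.00021), Apob, an apolipoprotein, fell by 2.05 ± 0.15 (adjusted p = 0.00029), and Dab2, an adaptor of endocytosis, fell by 1.76 ± 0.09 (adjusted p = 0.00013). Of 8 markers of the parietal endoderm, a neighbouring layer that secretes basement membrane, 4 were lower and 1 was higher with Ag+, and their mean level was 7.76 to 7.91 on control, 7.74 to 7.90 on AgNP and 7.38 to 7.51 on Ag+ arrays. The pluripotent and epiblast markers had 0 of 10 calls, at mean levels of 7.27 to 7.81, 7.48 to 8.03 and 7.12 to 7.53 in the same order. Of 11 early mesoderm markers, 5 were higher and 4 were lower with Ag+. With AgNPs 1 (Tbx20, a cardiac transcription factor) was lower, against 0.0513% of named probe sets. The part of these markers in the levels of the lysosomal genes was not tested.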

How the data were processed

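RNA of EBs was hybridised to 9 arrays, 3 in each of 3 groups, as GEO's labels give them. RMA, run by the authors in Affymetrix Expression Console 1.3, gave the deposited log2 values: background was corrected by convolution, arrays were normalized by quantiles and probes were summarised by median polish. RMA draws low signals together, so folds of dim probe sets are understated. The values were used as deposited. For the RNA labelled per array the labels and the methods differ. Arrays at a lower Ag+ dose were not analysed here.

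Names came from the platform annotation: of 41345 probe sets, 23521 named 1 gene, 1820 several and 16004 were unnamed here. All 25341 named ones were fitted in limma 3.58.1 (R 4.3.3), with 3 group means and 3 two-sided contrasts, and adjusted by Benjamini-Hochberg in each contrast with a threshold of 0.05. Intervals are at the 95% level. Npc1, Smpd1 and Arsb had a second, dimmer probe set, which was not called in any contrast.

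The genes, their 8 classes and 12 lists of further genes and markers were chosen with earlier results of these data known. Array values are given for called genes, the 2 genes of each class with the smallest p and Tfeb. Lists were described by counts and medians, with no test. The fit was tested on simulated data. Alternatives were other sample sets, a replicate block, trend, weights, a signal floor, all probe sets, centring, means of probe sets, the methods' ANOVA, with pooled and unequal variances, and thresholds, and each array left out. The number of arrays limits the precision.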

Additional observations from a re-analysis of the deposited data

How the results depend on the processing

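In AgNP EBs against controls, 0 genes were called under every alternative run, in limma and in the methods' ANOVA, and Arsa had an unadjusted p under 0.05 in limma. Against controls, 6 to 8 of the 8 Ag+ calls were made when each array was left out, and 6 (Ctsh, Ctsc, Lgmn, Ctsl, Gaa and Arsa) were called in each of these fits. In AgNP against Ag+ EBs the range was 4 to 5, and Ctsh, Ctsc, Lgmn and Ctsl were called each time. The median differences ranged from −0.0199 to 0.00625 for AgNPs, from −0.158 to −0.122 for Ag+, and from 0.0882 to 0.15 between the treatments, where leaving out Ag+ replicate 2 gave the lowest and Ag+ replicate 1 the highest value. The methods' ANOVA at a fold change of 1.5 and an unadjusted p of 0.05 called 4 genes with Ag+ (Ctsc, Ctsh, Ctsl and Lgmn) and 4 between the treatments, and so did these thresholds in limma, since the falls of the others are under 1.5-fold. After Benjamini-Hochberg adjustment, the methods' ANOVA called 0 genes in each comparison, with the lowest adjusted p among the 8 genes lower with Ag+ at 0.15. An ANOVA with unequal variances, added after seeing the data since the sources name it for the gene tables, called the same 4 genes in both comparisons at these thresholds and 0 after adjustment (lowest adjusted p 0.43). Trend and robust options, or a signal floor of 5, gave 11 calls with Ag+ and 9 between the treatments. These added Ctsb, Ctsd and Cd63 with Ag+, and Ctsb, Ctsd and Gaa between the treatments. Array weights gave 9 and 7, adding Ctsd in both. All probe sets, or only the arrays of the 2 groups compared, gave 7 and 4. Centring each array on the median of its brighter probe sets (averaging 5 or more) moved the median difference to 0.0198 for AgNPs and −0.0888 for Ag+. Without both AgNP replicate 1 and control replicate 3, which lay at the ends of a principal component and were chosen after seeing the data, there were 6 calls with Ag+ and 3 between the treatments. Among the called genes, no difference changed direction under the alternatives run.

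With the replicate number as a block, the calls numbered 0 for AgNPs, 8 for Ag+ and 5 in AgNP against Ag+ EBs (without Neu1, adjusted p = 0.068). Arrays with the same number correlated at −0.056 to 0.233 in their deviations from group means, with 4 of 9 pairs over 0.1. For arrays with different numbers the range was −0.273 to 0.191, with 2 of 18 over 0.1. Whether the numbers mark pairs was not settled by these values, and the main fit did not use the numbers.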

Other observations

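Other lists held genes that act around the lysosome. Of 17 relatives of TFEB and genes of nutrient sensing on the lysosomal surface, 2 were lower with Ag+ than in controls and 0 were higher, with a median of −0.04, where 1.47% of all named probe sets were lower and 0.813% were higher. Both encode partners of folliculin, which controls TFEB and TFE3. Fnip2 read 7.70, 7.45 and 7.55 in controls and 7.23, 7.10 and 7.05 with Ag+ (−0.44 ± 0.08, adjusted p = 0.030), and Fnip1 had a mean of 7.94 ± 0.05 (SD, 3 arrays) in controls and 7.68 ± 0.03 with Ag+ (−0.26 ± 0.05, adjusted p = 0.046). Tfec, a TFEB relative with a signal under the array median, had the lowest difference of the 17, at −0.92 ± 0.20, which did not pass (adjusted p = 0.0509), and its Ag+ arrays lay below all others. It is named after its values were seen. Of 15 autophagy genes, 1 was higher with Ag+ and 0 were lower, with a median of −0.03. Gabarapl1, a protein of the autophagosome membrane, read 7.21, 7.10 and 7.19 in controls, 7.54, 7.41 and 7.49 with AgNPs, and 7.42, 7.55 and 7.73 with Ag+. It rose by 0.40 ± 0.08 with Ag+ (adjusted p = 0.044), and the AgNP arrays lay above all controls at 0.31 ± 0.08, which did not pass (adjusted p = 0.345). The 4 measured cystatins, inhibitors of cysteine cathepsins, had 0 calls in limma in each comparison, and 0, 0 and 1 with an unadjusted p under 0.05.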
